A study of Mus musculus with 6 samples.

Results

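Autophagy is the route by which a cell wraps part of its cytoplasm in a double membrane, the autophagosome, and delivers it to lysosomes for breakdown. A kinase complex starts the process, a lipid kinase complex marks the site, lipid transfer proteins enlarge the membrane, and a pair of ubiquitin-like conjugation systems attach ATG8-family proteins to it. Receptors that bind both ATG8 proteins and tagged cargo choose what is taken up. In macrophages this machinery also captures invading bacteria and damaged mitochondria and limits inflammasome activity. The 36 genes described here are the core components and the cargo receptors of this pathway, listed by name among the 24752 genes of the deposited table. The list was drawn up with earlier results of these data known, and no value entered its rule. By role they comprise 5 initiation genes, 5 genes of the PI3-kinase complex, 5 genes of lipid transfer and binding of its product PI3P, 7 conjugation genes, 4 Atg4 proteases, 5 ATG8-family genes and 5 receptors.

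The cells were mouse bone marrow-derived macrophages (BMDMs), differentiated for 7 days from the marrow of mice aged 8 to 10 weeks, and their RNA was sequenced. The 6 libraries formed 3 groups of 2 replicates, B and C, whose values are always given with B first. Glul_LPS cells carried a lentiviral vector overexpressing Glul (glutamine synthetase, the enzyme that joins ammonia to glutamate) and received LPS, LPS cells received LPS, and control cells received none. LPS, a bacterial lipopolysaccharide, is the classical ligand of Toll-like receptor 4. Its dose was 100 ng/ml over 3 h, following 36 h with a vector that was either Glul or a control. Whether the LPS and control libraries carried a vector is not stated, nor are the strain and sex of the mice, and no library had Glul without LPS. Separate animals or cultures behind the replicates are not recorded either. A p-value here thus sets a difference only against the spread of these libraries, which may be technical.

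Depth was 15649764 to 17019324 fragments in Glul_LPS libraries, 16103044 to 17100908 in LPS libraries and 17333625 to 18691669 in control libraries. Values are FPKM, fragments divided by the length of the transcripts and by the size of the library. Glul itself, the gene the vector carries, had 37.2 and 37.7 FPKM in Glul_LPS, against 30.6 and 33.4 FPKM in LPS. Its change of 0.22 on the log2 scale did not pass the test (limma, adjusted p = 0.122), and control libraries had 140.2 and 140.3 FPKM. Higher Glul RNA was thus not called in the cells labelled as overexpressing it, and Glul_LPS is a name taken from the labels. The summed level of 8 macrophage markers was 19906 to 21158 FPKM in Glul_LPS, 17387 to 18706 FPKM in LPS and 21903 to 22658 FPKM in control libraries. Lyz2 alone made up 75.8% to 81.8% of that sum, and its members did not move together in LPS over control, with Csf1r at −1.16 and Itgam at −0.64 against Cd14 at 0.72 and Fcgr1 at 0.73 on the log2(FPKM + 1) scale as deposited. Summed markers of neutrophils were 6.99 to 9.44 FPKM in Glul_LPS, 11.2 to 11.5 FPKM in LPS and 8.94 to 11.2 FPKM in control. Among them, S100a9 averaged 1.16 FPKM in Glul_LPS against 3.45 FPKM in LPS (limma, adjusted p = 0.0781). Ngp averaged 0.172 against 1.09 FPKM (limma, adjusted p = 0.0779), and S100a8 6.68 against 6.47 FPKM. Summed markers of B cells, mast cells and erythroid cells stayed below 1 FPKM. The T cell list summed to 8.33 to 10.8 FPKM in Glul_LPS, 7.57 to 8.05 FPKM in LPS and 12.4 to 14.6 FPKM in control, nearly all of it Cd4, since Cd3e and Cd3d were at or below 0.159 FPKM. Stromal and endothelial markers summed to 1.32 to 1.90 FPKM in Glul_LPS, 1.43 to 1.44 FPKM in LPS and 2.71 to 3.22 FPKM in control. Dendritic cell markers summed to 1.11 to 1.19 FPKM in Glul_LPS, 1.28 to 1.49 FPKM in LPS and 0.683 to 0.834 FPKM in control. Xcr1 made up most of that sum in both LPS groups, with a mean of 1.19 FPKM in LPS against 0.118 FPKM in control. The part of these differences in the results below was not tested. In bulk RNA, fewer cells of a type and less RNA per cell cannot be told apart.

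All 36 genes passed the filter of at least 1 FPKM in at least 2 libraries, but Atg2b, Wipi1 and Atg16l2 passed it through the control libraries alone, so in LPS they could only be called lower. LPS moved most of the transcriptome on this scale. The median change of all tested genes in LPS minus control was −0.50 on the log2(FPKM + 1) scale, as deposited. Changes are therefore given on that scale and again with the median tested gene of every library set to the same level, called relative to the median gene below. Past the threshold of 0.05 on the adjusted p, 17.1% of all tested genes rose in LPS and 68.0% fell as deposited. Relative to the median gene, 34.6% of them rose and 32.2% fell. That median was −0.56 when the values were rescaled to TPM and −0.13 after quantile normalization, under which 3044 genes rose and 4631 fell.

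Among the 36 genes, 5 rose and 28 fell in LPS as deposited, a share of 13.9% and 77.8%. Relative to the median gene, the counts were 9 higher and 21 lower. Their median change was −1.05 as deposited and −0.53 relative to the median gene, where all tested genes had −0.50 and 0.02. The 3 genes that did not pass as deposited were Becn1, Atg9a and Atg3. Of the 36, 21 fell and 4 rose under each of 4 scalings, namely the values as deposited, rescaled to TPM, quantile normalized and centred. Of all tested genes, 30.8% fell and 16.5% rose under each of the 4. The 4 that rose were Tax1bp1, Optn, Atg16l1 and Atg4d, and the initiation genes all fell. For all 36, LPS and control libraries did not overlap as deposited, with 6 higher (19.5% of all tested genes were) and 30 lower (73.0% were).

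**Figure D1:**
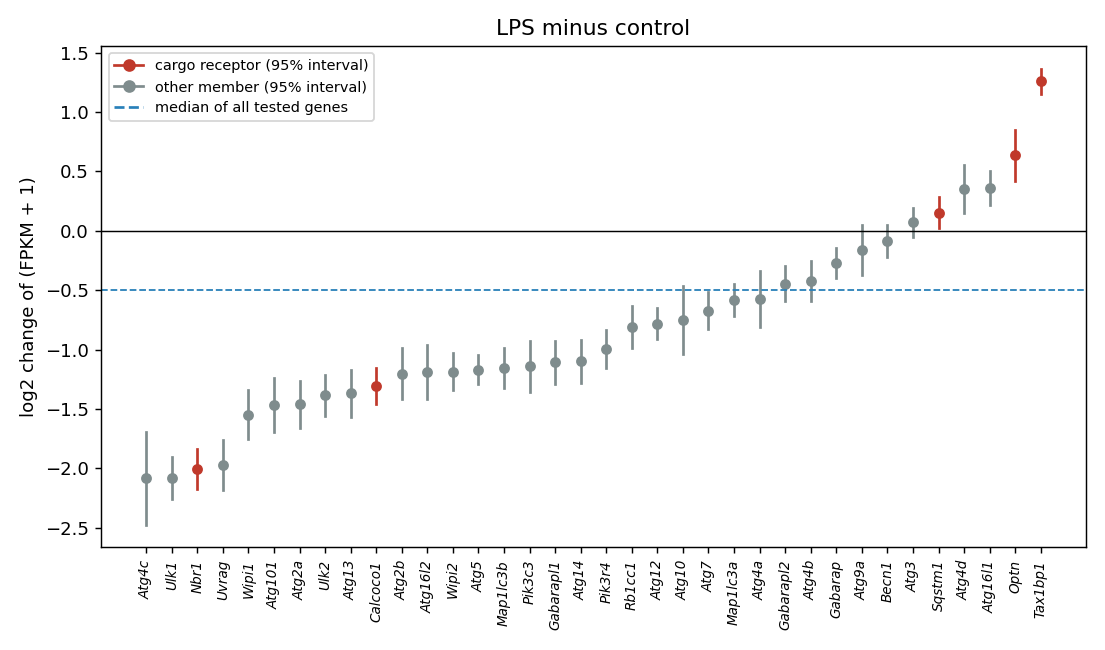
Change of each of the 36 genes in LPS minus control on the log2(FPKM + 1) scale, as deposited, ordered from lowest to highest, with 95% intervals from the limma fit (cargo receptors in red, other genes in grey). The dashed line is the median of all tested genes at −0.50; Tax1bp1 stands at the top with 1.26, and Atg4c, Ulk1 and Nbr1 stand lowest, at −2.08, −2.08 and −2.01.

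The receptors moved in opposite directions. Sqstm1 (p62), the receptor for ubiquitin-tagged aggregates, was by far the most abundant, Tax1bp1 and optineurin (Optn) bind ubiquitin and also restrain inflammatory signalling, Nbr1 is a p62 relative, and Calcoco1 serves turnover of the endoplasmic reticulum and Golgi. The promoters of the 4 receptors with the larger changes are shown, 2 that rose and 2 that fell, each 300 bases from 250 before to 50 after a start site, from RefSeq on GRCm38.p6. Capitals mark matches to motifs searched on both strands, TGACNNNGC (the antioxidant response element core) in Tax1bp1 and GAAA, any 2 bases and GAAA (the interferon-stimulated response element core) in Nbr1. They lie at chr6:52713915-52714214 (plus strand) for Tax1bp1, chr2:5064068-5064367 (minus) for Optn, chr11:101552404-101552703 (plus) for Nbr1 and chr15:102722129-102722428 (minus) for Calcoco1. In the deposited table, built on GRCm38, the genes span chr6:52713729-52766780 (Tax1bp1), chr2:5020642-5064051 (Optn), chr11:101552149-101581951 (Nbr1), chr15:102706779-102722178 (Calcoco1) and chr11:50199366-50210827 (Sqstm1).
Tax1bp1: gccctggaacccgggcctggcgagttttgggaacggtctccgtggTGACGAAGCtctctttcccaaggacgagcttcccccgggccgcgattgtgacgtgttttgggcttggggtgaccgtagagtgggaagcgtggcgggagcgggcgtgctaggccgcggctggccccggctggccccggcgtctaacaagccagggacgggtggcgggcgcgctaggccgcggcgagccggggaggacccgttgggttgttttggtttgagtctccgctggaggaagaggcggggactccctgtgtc
Optn: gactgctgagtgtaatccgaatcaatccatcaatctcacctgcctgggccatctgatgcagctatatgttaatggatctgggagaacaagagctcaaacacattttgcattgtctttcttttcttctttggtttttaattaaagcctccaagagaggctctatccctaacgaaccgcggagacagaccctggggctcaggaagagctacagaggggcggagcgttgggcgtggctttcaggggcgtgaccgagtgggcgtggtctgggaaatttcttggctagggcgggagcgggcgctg
Nbr1: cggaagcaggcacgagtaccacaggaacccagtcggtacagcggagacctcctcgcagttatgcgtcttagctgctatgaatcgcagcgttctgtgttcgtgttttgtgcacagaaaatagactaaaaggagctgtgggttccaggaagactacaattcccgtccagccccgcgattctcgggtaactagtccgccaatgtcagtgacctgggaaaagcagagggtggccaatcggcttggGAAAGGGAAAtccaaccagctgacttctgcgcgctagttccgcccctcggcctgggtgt
Calcoco1: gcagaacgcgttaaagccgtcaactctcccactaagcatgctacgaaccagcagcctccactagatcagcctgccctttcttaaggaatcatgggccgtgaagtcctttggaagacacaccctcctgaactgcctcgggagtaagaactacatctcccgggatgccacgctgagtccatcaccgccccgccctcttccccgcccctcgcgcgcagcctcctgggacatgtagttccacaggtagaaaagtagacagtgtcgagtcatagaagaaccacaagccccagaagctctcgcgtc

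The match in Tax1bp1 spans bases −205 to −197 from the start site, counted as 0, and that in Nbr1 spans −9 to 0. Each of these genes has another annotated start, nearer the start of the gene in the deposited table, with no match in its window. The windows shown for these genes are those with a match. RefSeq promoters were used for 30 of the 36 genes. Any on chromosome 18, where Pik3c3 and Atg12 lie, were left out of these genes but not of all promoters. Of these 30, TGACNNNGC was present in 4 (Tax1bp1, Atg13, Map1lc3b and Ulk2) and in 12.4% of all 32851 promoters. Here and below, a gene counts with a match in any of its windows, whereas the share of all is per window. The interferon-stimulated response element core was present in Nbr1 alone among them and in 3.44% of all promoters. The E-box core CACGTG, part of the element bound by TFEB, occurred in Atg3, Atg5, Atg7 and Atg14 and in 7.15% of all promoters. The only Atg7 window (chr6:114670846-114671145) lies inside the gene, which starts at 114643097 in the deposited table, so no window at that start was searched. The NF-kB core (GGG, any 2 bases and TTTCC) occurred in Wipi2, whose window also lies inside its gene, and in 1.63% of all. GTAAACA (FOXO core) occurred in 0 of the 30 and in 3.65% of all. A match describes letters, and no binding was measured here.

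Tax1bp1 had 52.7 and 53.3 FPKM in Glul_LPS, 49.95 and 50.3 FPKM in LPS, and 20.2 and 20.4 FPKM in control. Both LPS groups stood well above control with no overlap. It rose by 1.26 ± 0.04 (SE) in LPS over control (limma, adjusted p = 1.76e-06) and by 1.78 relative to the median gene, and its FPKM was 2.47-fold that of control. Among tested genes it ranked at the 91.1 and 91.2 percentiles in LPS and at 79.1 and 79.3 in control.

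Nbr1 went the other way. It had 4.01 and 4.40 FPKM in Glul_LPS, 4.19 and 3.84 FPKM in LPS, and 19.4 and 19.0 FPKM in control. It fell by 2.01 ± 0.07 (SE) in LPS (limma, adjusted p = 1.76e-06), or by 1.49 relative to the median gene, and its LPS level was 0.209 of control. Within a library, Tax1bp1 per Nbr1 was 13.1 and 12.1 in Glul_LPS, 11.9 and 13.1 in LPS, and 1.04 and 1.08 in control. This ratio of FPKM values is untouched by any factor that scales a whole library. These receptors stood about level in control and more than 10 to 1 in both LPS groups. Like the pairs below, this pair joins genes that changed differently, so the ratio restates their changes and is no separate evidence.

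Optn had 11.4 and 12.8 FPKM in Glul_LPS, 9.51 and 10.6 FPKM in LPS, and 6.47 and 5.76 FPKM in control. It rose by 0.64 ± 0.09 (SE) in LPS (limma, adjusted p = 0.000588), and by 1.15 relative to the median gene. Calcoco1 had 5.75 and 5.53 FPKM in Glul_LPS, 5.80 and 5.75 FPKM in LPS, and 15.2 and 16.4 FPKM in control. It fell by 1.31 ± 0.06 in LPS (limma, adjusted p = 5.92e-06), or by 0.79 relative to the median gene. Optn per Calcoco1 was 1.98 and 2.32 in Glul_LPS, 1.64 and 1.84 in LPS, and 0.426 and 0.352 in control, so the order of these receptors differed between control and both LPS groups.

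Sqstm1 had 322.1 and 304.6 FPKM in Glul_LPS, 307.2 and 321.3 FPKM in LPS, and 291.1 and 273.7 FPKM in control. It was among the most abundant genes everywhere, at the 98.7 to 98.9 percentile, and held 80.0% to 82.6% of the summed receptor FPKM in every library. Its rise of 0.15 ± 0.06 (SE) in LPS was small (limma, adjusted p = 0.036), was 0.67 relative to the median gene and was −0.10 after quantile normalization. That call was lost without LPS replicate C (adjusted p = 0.15), without control replicate C (0.177) and with no filter (0.0813). Of its exon bases, 17.3% overlap Mrnip on the opposite strand, and the strand setting of the counting is not given in the sources used here.

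**Figure D2:**
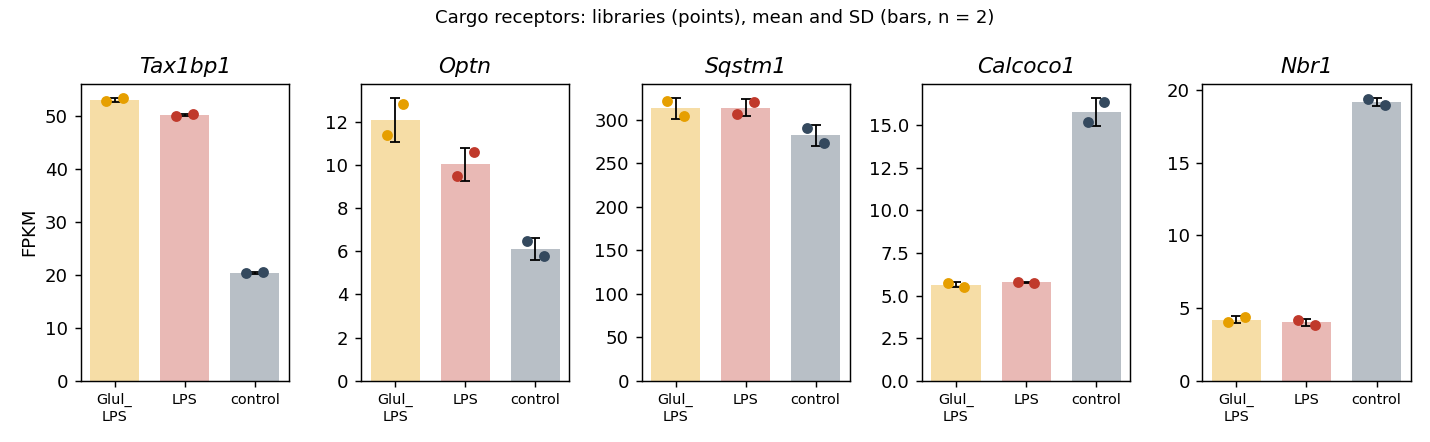
FPKM of the 5 cargo receptors, each on its own linear axis, with Glul_LPS, LPS and control from left to right; points are libraries, bars are group means and error bars are the SD (n = 2 each). Tax1bp1 and Optn are higher in both LPS groups than in control, Nbr1 and Calcoco1 are lower, and Sqstm1 differs little.

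The ATG8 family contains the proteins that coat the autophagosome membrane and that the receptors bind. Gabarap dominated it, with 232.1 and 220.6 FPKM in Glul_LPS, 206.0 and 216.8 FPKM in LPS, and 250.5 and 260.5 FPKM in control. As deposited it fell by 0.27 ± 0.05 (SE) in LPS (limma, adjusted p = 0.00247), but it rose by 0.25 relative to the median gene (adjusted p = 0.00388), a call lost without control replicate B. Its direction therefore depends on the scaling.

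Map1lc3b (LC3B), the usual protein marker of autophagosomes, had 11.02 and 10.97 FPKM in Glul_LPS, 9.38 and 10.7 FPKM in LPS, and 23.2 and 23.9 FPKM in control. It fell by 1.15 ± 0.07 (SE) in LPS (limma, adjusted p = 1.53e-05), or by 0.64 relative to the median gene. Gabarapl1 had 22.2 and 19.4 FPKM in Glul_LPS, 17.9 and 18.4 FPKM in LPS, and 39.0 and 41.5 FPKM in control. It fell by 1.11 ± 0.07 (limma, adjusted p = 2.29e-05), or by 0.59 relative to the median gene. Both fell under each of the 4 scalings, though 28.3% of the exon bases of Gabarapl1 overlap an opposite-strand gene, 1700101I11Rik.

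Map1lc3a (LC3A) had 17.2 and 16.02 FPKM in Glul_LPS, 17.1 and 17.5 FPKM in LPS, and 26.1 and 26.7 FPKM in control. Gabarapl2 (GATE-16) had 19.0 and 19.2 FPKM in Glul_LPS, 16.1 and 17.7 FPKM in LPS, and 23.0 and 23.6 FPKM in control. Both fell as deposited, by 0.58 for Map1lc3a (limma, adjusted p = 9.90e-05) and by 0.45 for Gabarapl2 (adjusted p = 0.000516). Relative to the median gene neither passed, at −0.06 for Map1lc3a (adjusted p = 0.342) and 0.07 for Gabarapl2 (adjusted p = 0.302). Of the 50-base stretches of Gabarapl2, 12.2% also occur in transcripts of other genes, most often Gm3724.

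The composition of the family, also untouched by such a factor, differed between control and both LPS groups. Gabarap held 77.0% and 77.1% of the summed family FPKM in Glul_LPS, 77.3% and 77.1% in LPS, and 69.2% in both control libraries. Map1lc3b held 3.65% and 3.83% in Glul_LPS, 3.52% and 3.81% in LPS, and 6.42% and 6.35% in control. Gabarapl1 held 7.38% and 6.79% in Glul_LPS, 6.70% and 6.56% in LPS, and 10.8% and 11.03% in control. The summed family level was 301.6 and 286.2 FPKM in Glul_LPS, 266.4 and 281.2 FPKM in LPS, and 361.8 and 376.2 FPKM in control. A share weighs each gene per length: without division by length, Map1lc3b held 13.6% of family fragments in Glul_LPS, 13.4% in LPS and 21.7% in control.

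**Figure D3:**
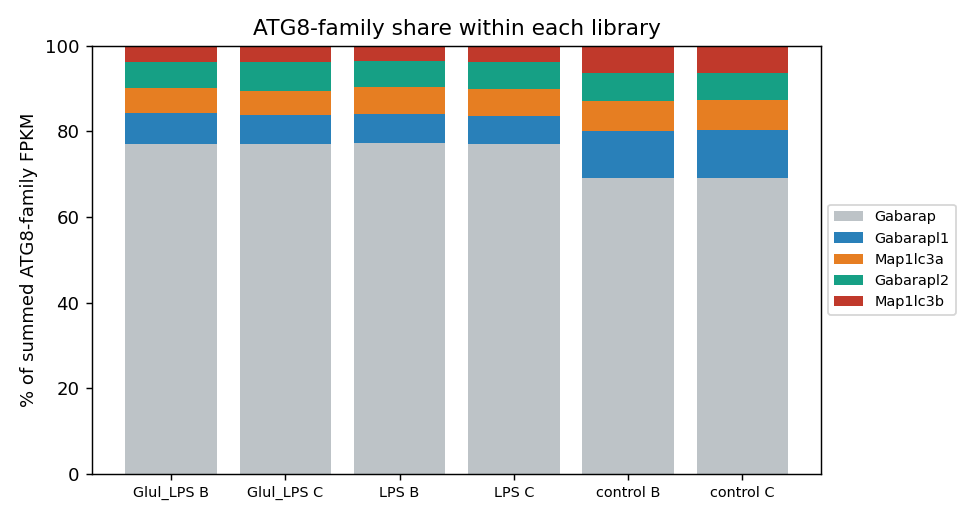
Stacked bars of the share of the summed ATG8-family FPKM held by each of the 5 genes, in percent, 1 bar per library, with Glul_LPS, LPS and control libraries from left to right. Gabarap takes 77.0% to 77.3% in the 4 libraries with LPS and 69.2% in control, and the shares of Map1lc3b and Gabarapl1 are smaller with LPS.

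The 5 initiation genes form the complex that receives signals from mTORC1 and AMPK, and all of them fell in LPS on both scales. Their median was −1.39 as deposited and −0.87 relative to the median gene. Of all tested genes, 68.0% fell as deposited and 32.2% relative to the median gene. Ulk1, the kinase at its centre, had 2.72 and 2.68 FPKM in Glul_LPS, 2.25 and 2.61 FPKM in LPS, and 13.5 FPKM in both control libraries. It fell by 2.08 ± 0.07 (SE) in LPS (limma, adjusted p = 1.93e-06), or by 1.56 relative to the median gene. Atg101, a stabilising subunit and the most abundant of the complex, had 7.4998 and 6.03 FPKM in Glul_LPS, 5.91 and 5.90 FPKM in LPS, and 17.9 and 18.2 FPKM in control, a fall of 1.47 ± 0.09 (limma, adjusted p = 1.90e-05). The related kinase Ulk2, the adaptor Atg13 and the scaffold Rb1cc1 (FIP200) fell by 0.81 to 1.39 as deposited. For Rb1cc1 the change relative to the median gene was −0.29 (adjusted p = 0.0124), and that call was lost without control replicate C. The summed level of the complex was 22.7 and 20.9 FPKM in Glul_LPS, 18.7 and 19.8 FPKM in LPS, and 62.5 and 62.6 FPKM in control.

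In the PI3-kinase complex, which makes PI3P on the growing membrane, the subunits did not move alike. The catalytic Pik3c3 (VPS34), the regulatory Pik3r4 (VPS15), Atg14, which directs the complex to autophagosomes, and Uvrag, which takes the place of Atg14 in its endosomal form, fell by 1.00 to 1.97 as deposited and by 0.48 to 1.46 relative to the median gene. Uvrag had 2.08 and 2.21 FPKM in Glul_LPS, 2.19 and 2.54 FPKM in LPS, and 11.5 and 12.9 FPKM in control, a fall of 1.97 ± 0.09 (SE; limma, adjusted p = 4.37e-06), although 17.6% of its exon bases overlap an opposite-strand gene. Becn1 (Beclin 1), the scaffold shared by both forms of the complex and its most abundant gene in both LPS groups but not in control, had 6.59 and 6.38 FPKM in Glul_LPS, 6.99 and 7.11 FPKM in LPS, and 7.56 and 7.51 FPKM in control. Its change of −0.08 as deposited did not pass (limma, adjusted p = 0.197), but it rose by 0.43 relative to the median gene (adjusted p = 0.00057). Of its exon bases, 43.9% overlap Cntd1 on the opposite strand. Ulk1 per Becn1, a ratio within each library, was 0.412 and 0.420 in Glul_LPS, 0.322 and 0.368 in LPS, and 1.79 in both control libraries.

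Of the genes that enlarge the membrane, the lipid transfer proteins Atg2a and Atg2b and the PI3P-binding Wipi1 and Wipi2 fell by 1.19 to 1.55 as deposited and by 0.67 to 1.03 relative to the median gene. Atg2a, the most abundant of them in control but below Atg9a in both LPS groups, had 3.498 and 3.69 FPKM in Glul_LPS, 2.87 and 3.27 FPKM in LPS, and 10.7 and 9.68 FPKM in control (limma, adjusted p = 1.12e-05 for LPS with control). Wipi1 had 0.839 and 0.855 FPKM in Glul_LPS, 0.634 and 0.796 FPKM in LPS, and 4.17 and 3.85 FPKM in control. It fell by 1.55 ± 0.09 (SE) in LPS (limma, adjusted p = 1.09e-05), on a scale that understates changes near 1 FPKM. Wipi1 and Atg2b passed the filter through the control libraries alone, so in LPS they could only be called lower. The scramblase Atg9a, which evens out lipids between membrane leaflets, had 5.48 and 5.94 FPKM in Glul_LPS, 4.62 and 5.45 FPKM in LPS, and 5.91 and 5.57 FPKM in control. Its change was −0.16 as deposited (limma, adjusted p = 0.125), and it rose by 0.36 relative to the median gene (adjusted p = 0.00969). Single libraries decided both calls: Atg9a fell as deposited without LPS replicate C (−0.26, adjusted p = 0.0361), and its rise relative to the median gene was lost without control replicate C. Moreover 32.6% of its exon bases overlap other genes, chiefly one on the same strand.

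The conjugation enzymes were mixed. Atg12, the ubiquitin-like protein, and Atg5, to which it is joined, fell by 0.78 and 1.17 as deposited. Atg12, the most abundant conjugation gene in control and next to Atg3 in both LPS groups, had 17.3 and 17.2 FPKM in Glul_LPS, 16.8 and 15.8 FPKM in LPS, and 28.4 and 29.0 FPKM in control (limma, adjusted p = 2.30e-05 for LPS with control). Atg7, the E1-like enzyme that activates both ubiquitin-like systems, and Atg10, the E2-like enzyme for Atg12, fell as deposited by 0.67 and 0.75 but did not pass relative to the median gene, at −0.15 (adjusted p = 0.0644) and −0.23 (0.118). Atg3, the E2-like enzyme for ATG8 proteins, had 19.7 and 19.9 FPKM in Glul_LPS, 20.7 and 21.8 FPKM in LPS, and 19.9 and 20.3 FPKM in control. Its 0.07 as deposited did not pass (limma, adjusted p = 0.229), and it rose by 0.59 relative to the median gene.

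Atg16l1 and its relative Atg16l2 moved apart. Atg16l1, which brings the Atg12-Atg5 conjugate to the membrane, had 4.80 and 4.70 FPKM in Glul_LPS, 5.55 and 5.49 FPKM in LPS, and 4.07 FPKM in both control libraries. It rose by 0.36 ± 0.06 (SE) in LPS (limma, adjusted p = 0.00118), and by 0.88 relative to the median gene. Atg16l2 had 0.555 and 0.732 FPKM in Glul_LPS, 0.711 and 0.580 FPKM in LPS, and 2.67 and 2.83 FPKM in control, and fell by 1.19 ± 0.09 (limma, adjusted p = 4.42e-05). Atg16l2 passed the filter through the control libraries alone, so in LPS it could only be called lower. Atg16l1 per Atg16l2 was 8.64 and 6.42 in Glul_LPS, 7.80 and 9.47 in LPS, and 1.52 and 1.44 in control.

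The Atg4 proteases trim ATG8 proteins before conjugation and release them afterwards. Atg4c had 0.824 and 1.32 FPKM in Glul_LPS, 0.760 and 1.31 FPKM in LPS, and 7.54 FPKM in both control libraries. It fell by 2.08 ± 0.16 (SE) in LPS (limma, adjusted p = 4.09e-05), or by 1.56 relative to the median gene. This was the least precisely measured of the 36 changes, resting on as few as 41 fragments in a library. Atg4d, by contrast, rose by 0.35 ± 0.08 (limma, adjusted p = 0.00697), with 3.31 and 3.69 FPKM in Glul_LPS, 3.60 and 3.97 FPKM in LPS, and 2.89 and 2.61 FPKM in control. Of its exon bases 19.3% overlap Kri1 on the opposite strand. Atg4a, the most abundant, had 5.54 and 4.68 FPKM in Glul_LPS, 4.85 and 5.67 FPKM in LPS, and 8.504 and 8.13 FPKM in control. Atg4a and Atg4b fell as deposited, by 0.58 and 0.42, but not relative to the median gene, where the values were −0.06 (adjusted p = 0.606) and 0.10 (adjusted p = 0.256). Of the 50-base stretches of Atg4a, 51.2% also occur in other genes, most often its pseudogene Atg4a-ps, so its level is uncertain.

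**Figure D4:**
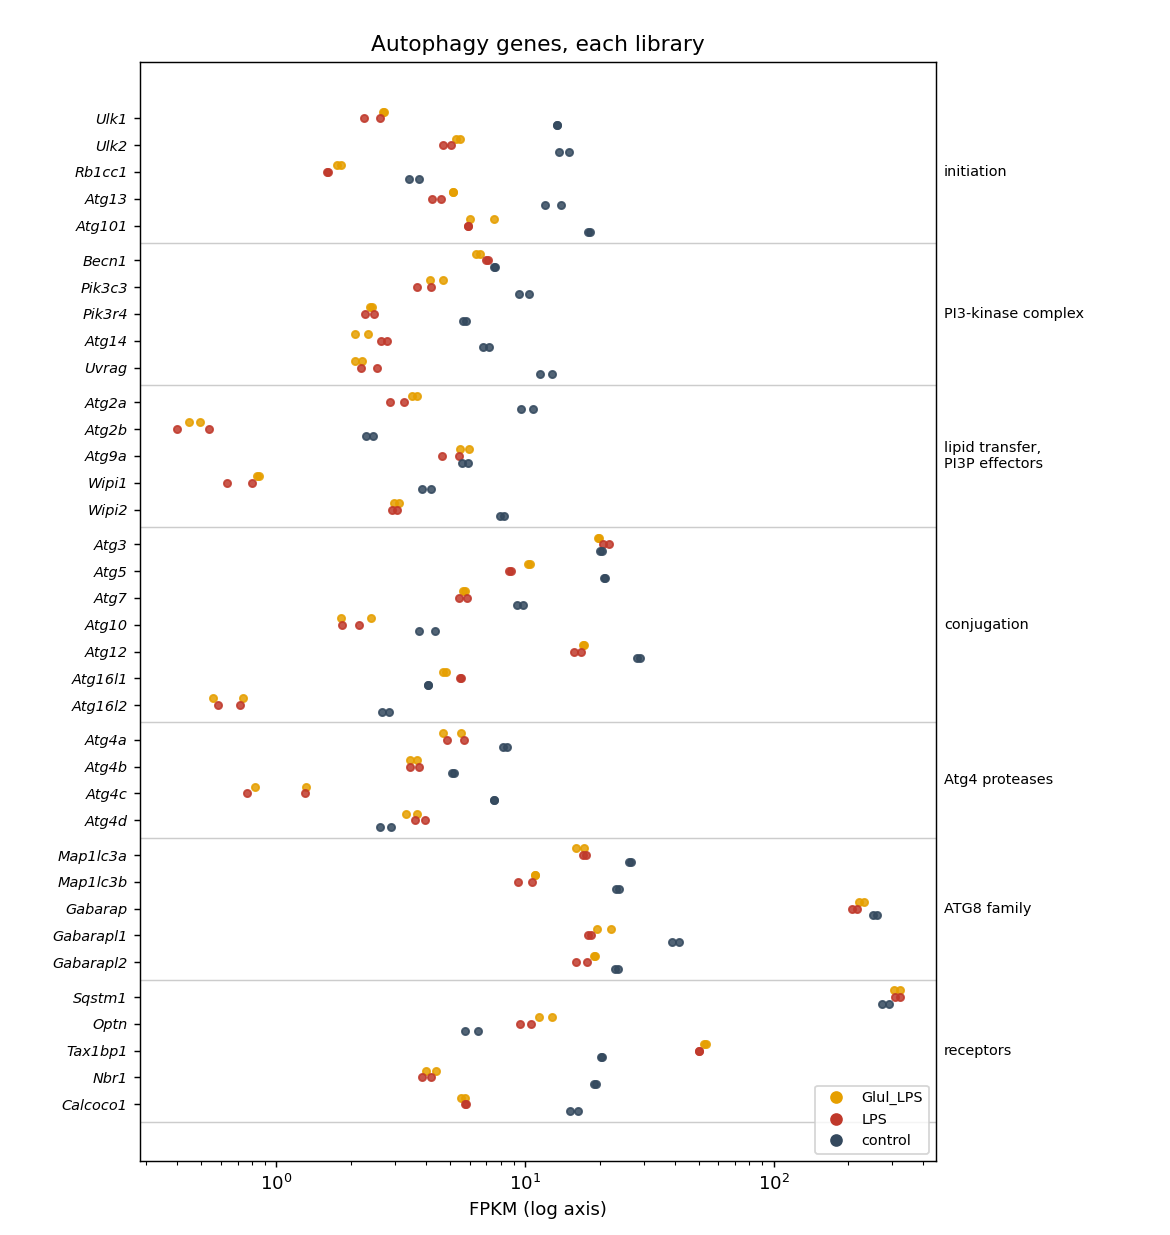
FPKM of all 36 genes (rows, grouped by role) in each of the 6 libraries on a log axis, 1 point per library, with Glul_LPS, LPS and control marked by colour. Sqstm1 and Gabarap stand far above the others in every library, and most other genes lie lower in both LPS groups than in control.

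Glul_LPS with LPS sets cells labelled with the Glul vector against cells whose vector, if any, is not stated. As no library had Glul without LPS, an altered response to LPS cannot be told apart from an effect independent of LPS. Glul RNA itself was not called higher in Glul_LPS. None of the 36 genes passed this test in either direction (limma, adjusted over all genes), against 0.547% of all tested genes that rose and 0.556% that fell. At an unadjusted p under 0.05, 6 of the 36 (16.7%) were counted, against 17.5% of all tested genes. With voom on recovered fragments, 0 of the 32 genes tested passed, where 2.19% of all genes tested that way rose and 3.08% fell. The 36 changes ranged from −0.21 to 0.25 with a median of 0.05, where the median of all tested genes was 0.02. As deposited, 24 lay above 0, and 19 did so relative to the median gene. The 95% intervals of all 36 lay between −0.39 and 0.46 on the log2(FPKM + 1) scale, so these data do not show that the groups were alike, only that larger changes fell outside the intervals. That scale understates changes of the genes near 1 FPKM.

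The 6 genes under 0.05 before adjustment were named after their values were seen. Optn had the largest positive value at 0.25 ± 0.09 (SE; limma, adjusted p = 0.237), with an upper bound of 0.46. Atg5 had the smallest adjusted p, with 10.3 and 10.5 FPKM in Glul_LPS against 8.63 and 8.83 FPKM in LPS (0.23 ± 0.05, limma, adjusted p = 0.0995). Gabarapl1 and Gabarapl2 had 0.19 and 0.17. Atg14 was at −0.21, with 2.08 and 2.33 FPKM in Glul_LPS against 2.65 and 2.78 FPKM in LPS (limma, adjusted p = 0.222), and Atg16l1 at −0.18 (adjusted p = 0.201). Glul_LPS and LPS libraries did not overlap for 21 of the 36, with 16 higher (27.7% of all tested genes were) and 5 lower (19.3% were), and overlapped for 15.

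**Figure D5:**
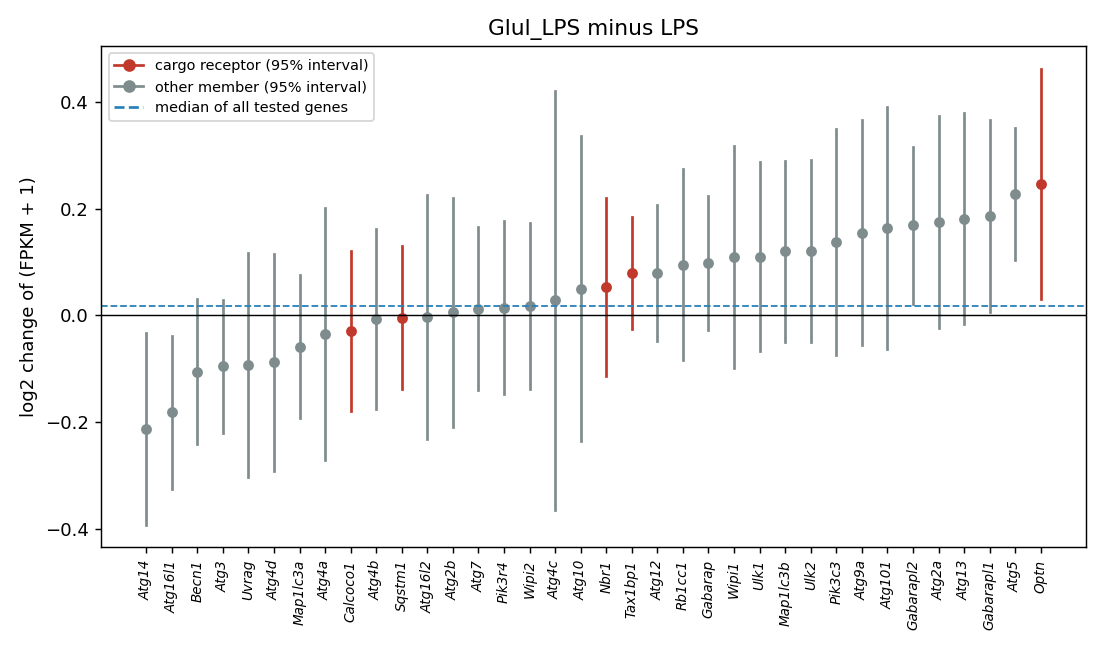
Change of each of the 36 genes in Glul_LPS minus LPS on the log2(FPKM + 1) scale, as deposited, ordered from lowest to highest, with 95% intervals from the limma fit (cargo receptors in red, other genes in grey) and the median of all tested genes, 0.02, as a dashed line. The values lie between −0.21 (Atg14) and 0.25 (Optn), and 0 of them pass the adjusted threshold.

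Glul_LPS with control shares libraries with both comparisons above. Of the 36 genes, 5 rose and 29 fell as deposited, against 16.9% and 67.4% of all tested genes. In Glul_LPS over control, the receptors had changes of 1.34 (Tax1bp1), 0.88 (Optn), 0.15 (Sqstm1), −1.96 (Nbr1) and −1.34 (Calcoco1). In LPS over control, the values were 1.26 (Tax1bp1), 0.64 (Optn), 0.15 (Sqstm1), −2.01 (Nbr1) and −1.31 (Calcoco1). For Ulk1 the changes over control were −1.97 in Glul_LPS and −2.08 in LPS.

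Lists of other genes of the pathway give the setting. Upstream kinase control (mTORC1, AMPK, TBK1 and their regulators) had 21 tested genes of 22 listed, of which 1 rose and 20 fell in LPS as deposited, while relative to the median gene 3 were higher and 12 lower. All tested genes had 17.1% higher and 68.0% lower as deposited, and 34.6% higher and 32.2% lower relative to the median gene, and each list below is to be read against those shares. The list's largest changes relative to the median gene were falls of 3.98 for Sesn1, of 1.86 for Sesn2, of 1.45 for Akt1s1 and of 1.19 for Prkag2. Sestrins restrain mTORC1, Akt1s1 encodes its inhibitor PRAS40, and Prkag2 is an AMPK subunit. Sesn1, Sesn2 and Prkag2 passed the filter only through their control libraries, so in LPS they too could only be called lower. Tbk1, the kinase that phosphorylates optineurin and p62, rose by 0.52 as deposited and by 1.04 relative to the median gene, with 45.9 and 44.0 FPKM in LPS against 31.2 and 30.7 FPKM in control; it was named after its value was seen.

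Transcriptional control had 13 tested genes, with 2 higher and 10 lower as deposited and 3 higher and 9 lower relative to the median gene, where 68.0% and 32.2% of all tested genes were lower. Tfeb, a main activator of lysosomal and autophagy genes, had 0.274 and 0.402 FPKM in LPS against 8.08 and 7.66 FPKM in control. The difference was −2.73 as deposited (limma, adjusted p = 3.35e-06) and −2.21 relative to the median gene. Tfeb passed the filter through control alone, so lower was the only call open to it. Its relative Tfec had 22.2 and 22.2 FPKM in LPS against 6.28 and 6.27 FPKM in control. Tfec rose by 1.67 as deposited (limma, adjusted p = 9.28e-07) and by 2.19 relative to the median gene. Foxo3, a forkhead activator of autophagy genes, fell by 3.15, and Flcn (folliculin), which acts upstream of TFEB, fell by 2.66. Mitf, of the same family as Tfeb, was also named after its value was seen. Mitf rose by 1.02 as deposited (limma, adjusted p = 8.69e-06) and by 1.54 relative to the median gene.

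Early cofactors had 12 tested genes of 14 listed, with 2 higher and 9 lower as deposited and 3 higher and 6 lower relative to the median gene. Trp53inp1 and Trp53inp2, which bind ATG8 proteins, fell by 1.85 and 1.00 relative to the median gene, as did Rubcn (Rubicon), which binds the Uvrag form of the PI3-kinase complex, by 1.03. Rubcnl (Pacer), which counters Rubicon, rose by 1.46. Fusion with lysosomes had 16 tested genes, with 1 higher and 13 lower as deposited and 5 higher and 8 lower relative to the median gene. The tethering subunit Vps18 fell by 1.16 and the adaptor Plekhm1 by 0.78, and the autophagosomal SNARE Stx17 fell by 0.74, while its partner Snap29 rose by 1.07, relative to the median gene. Other selective receptors had 16 tested genes of 20 listed, with 0 higher and 16 lower as deposited and 1 higher and 6 lower relative to the median gene, where 32.2% of all tested genes were lower. The ER-phagy receptor Retreg3 fell by 0.93, the mitophagy kinase Pink1 by 0.49, the ferritin receptor Ncoa4 by 0.46 and the aggregate adaptor Wdfy3 by 0.42 relative to the median gene. In Glul_LPS with LPS, 0 genes of these 5 lists passed, where just 0.547% of all tested genes rose and 0.556% fell.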

How the data were processed

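Libraries were made with a NEBNext Ultra kit for an Illumina HiSeq, per the labels. FPKM values of 24752 genes were deposited by the authors as 1 table. GRCm38, HISAT2 2.1.0, HTSeq 0.6.0, CASAVA and DESeq2 are named in the submitters' processing notes. In what order they ran, on which annotation and whether strand was used in counting is not given in the sources used here. A further 6 per-sample columns could be tied to no listed sample and were left out.

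The 36 genes, their roles and the other lists were chosen with earlier results of these data known. Log2(FPKM + 1) values of 10962 genes (at least 1 FPKM in at least 2 of 6 libraries) entered 1 limma fit of 3 groups (limma 3.58.1, R 4.3.3, two-sided, mean-variance trend, 6.27 degrees of freedom), with Benjamini-Hochberg adjustment over all genes and a threshold of 0.05. Changes relative to the median gene come from the same fit after centring each library on its median tested gene. "Rose" and "fell" mark genes past the threshold.

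Fragments were recovered as FPKM times GENCODE M21 exon length, whole within 0.01 for 22655 genes, 32 of the 36 among them, and served for depth and for voom with TMM factors, computed from their published definition. Members had 41 to 18440 fragments a library, and counting error was not separated from other spread. Named genes were the most abundant of each role by the mean over all libraries, those with a called change of at least 1 relative to the median gene, the receptors and ATG8 family, and up to 4 genes of each other list. Alternatives were pseudocounts of 0.1 and 0.5, other filters, TPM, quantile and median scaling, a robust spread, a fit of just the 2 groups of a comparison, a block for the replicate letter, and leaving out each library.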

Additional observations from a re-analysis of the deposited data

How the results depend on the processing

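In LPS with control, a filter at a mean of 5 FPKM left 24 of the 36 members, of which 3 were called higher and 18 lower as deposited (24.5% and 62.8% of all genes tested), in place of 5 and 28. Relative to the median gene it left 5 higher in place of 9 (32.4% of all genes tested under that filter). Centring called 9 higher (34.6% of all genes tested). Limma voom, which tested 32 members, called 9 higher and 18 lower (34.2% and 37.5% of all genes tested). With the replicate letter as a block the counts were 4 and 28 (17% and 67.8% of all genes tested), and Sqstm1 lost its call (adjusted p = 0.0546). Same-lettered libraries did not deviate together (correlations of −0.05, −0.00 and −0.02), and whether the letter pairs samples is not recorded. The Map1lc3b share of family fragments, without division by length, was 13.6% in Glul_LPS, 13.4% in LPS and 21.7% in control.

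Some LPS changes turned direction. Under quantile normalization Becn1 was 0.39, Atg9a 0.37, Atg4b 0.14 and Sqstm1 −0.10. After centring Becn1 was 0.43, Atg9a 0.36, Atg4b 0.10, Gabarap 0.25 and Gabarapl2 0.0732. With voom Becn1 was 0.48, Atg9a 0.39, Atg4b 0.0571, Gabarap 0.30 and Gabarapl2 0.11. Without control replicate B, Atg2b, Wipi1, Atg16l2 and Gabarap lost their calls relative to the median gene, and without control replicate C, Rb1cc1, Atg2b, Atg9a, Wipi1 and Atg16l2 did; Atg2b, Wipi1 and Atg16l2 then no longer passed the filter.

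In Glul_LPS with LPS, 0 members were called under each alternative that kept 2 libraries a group. Those alternatives called few of all tested genes. With no filter, 0.0218% rose and 0.0174% fell, and with a filter at a mean of 5 FPKM, 2.35% and 2.21% did. The 0 among the members can therefore say little. Values near 0 turned under quantile normalization for Pik3r4 (−0.0177), Atg2b (−0.0105), Wipi2 (−0.00338), Atg7 (−0.0134) and Atg4c (−0.00812). They did so after centring for Pik3r4 (−0.0150), Atg2b (−0.0242), Wipi2 (−0.0120), Atg7 (−0.0169) and Atg4c (−0.00166), and with voom for Atg7 (−0.00554). Leaving out each library gave Pik3r4 −0.0251 to 0.0546, Atg2b −0.0623 to 0.0733, Wipi2 −0.00933 to 0.0448, Atg7 −0.0302 to 0.0559, Atg10 −0.0832 to 0.183, Atg16l2 −0.0806 to 0.0748, Atg4a −0.137 to 0.0663, Atg4b −0.0550 to 0.0425, Atg4c −0.168 to 0.224, Sqstm1 −0.0444 to 0.0357 and Nbr1 −0.000633 to 0.107. The cause of these moves was not tested beyond each setting's own construction. Groups of 2 libraries limit what the spread can show, and Atg4c rested on as few as 41 fragments in a library.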
